A study of Brassica napus with 8 samples.

Results

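The comparison sets rapeseed seedlings at 48 h of germination against young leaf, with 2 libraries of each tissue, 4 of the 8 libraries of the series. The libraries were assigned to their tissues by the labels alone. All are polyadenylated RNA of Brassica napus, cultivar Zhongshuang 11, an oil crop whose genome joins an A and a C subgenome, sequenced as paired reads of 150 bp. The other 4 libraries, from seed labelled 50 DPA and from dry seed, were used here to estimate the spread and to show what the seed held before it germinated. Per the labels' protocols, vegetative tissue came from greenhouse plants and the economically important organs from a field. No treatment or mutation is given for any group. The labels do not say from which plants the germinated seed came, whether the seed coat was still attached, or whether the 2 libraries of a tissue were separate harvests. What the p-values measure is thus the library-to-library spread, and this may be technical. Growing site, and any difference in handling or sequencing between the tissues, cannot be told apart from tissue.

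A germinating oilseed draws on stored protein and oil while its root and hypocotyl grow, and its cotyledons turn from stores into green, photosynthesising organs over the following days. A young leaf is already a photosynthetic organ, with chloroplasts, stomata and veins in place. Setting the seedling beside the leaf asks how much of the leaf's transcript population is present at 48 h, which of its genes are not yet on, and which genes are used by the seedling and not by the leaf. The deposited tables give gene IDs without names, and 0 of the IDs matched the rapeseed gene table at hand, which describes another assembly. Genes of photosynthesis, oil breakdown or seed storage could therefore not be picked out, and the tissue labels could not be checked against marker genes. In bulk tissue, fewer cells of a type and less RNA per cell cannot be told apart.

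The young leaf libraries held 35000319 and 36463920 counts and the germinating seed libraries 55721357 and 40730533. Per library, 44381 and 44580 genes reached 1 CPM (counts scaled to a common library total) in leaf, and 43089 and 43058 in germinating seed. Log2 levels and differences between libraries, here and below, were taken after adding 0.5 CPM, which dampens differences at low levels. On that scale 0.118% of the genes at 1 CPM or more differed over 2-fold between the leaf libraries. Between the germinating seed libraries it was 0.0909%. Among abundant genes, at 100 CPM or more, the median log2 difference between the 2 libraries was 0.0292 in leaf and 0.107 in germinating seed. Levels below are CPM on the TMM scale, which sets library scales as if most genes were unchanged, unless given as plain CPM.

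Seedling and leaf used much the same genes at very different levels. Plain CPM was used to call a gene on, at 1 CPM or more in both libraries of a tissue, or off, below 0.2 CPM in both. Of 106059 genes listed, 37109 were on in both tissues. These shared genes took 86.4% ± 0.0145 of the counts in leaf and 94.0% ± 0.0158 in germinating seed (SD, n = 2). In dry seed the same genes took 73.7% ± 0.875 of counts and in 50 DPA seed 48.9% ± 0.279. A further 46319 genes were off in both. Genes on in leaf numbered 43509, of which 4344 stood between off and on in germinating seed and 2056 were off there. Genes on in germinating seed numbered 41911, of which 3079 stood in between in leaf and 1723 were off there.

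Across the 59062 genes tested, Pearson's r between log2 levels in germinating seed and in leaf was 0.661, and Spearman's rho was 0.676. The r of germinating seed was 0.649 with dry seed and 0.625 with 50 DPA seed, whereas leaf had 0.465 with dry seed. Libraries of 1 tissue correlated at 0.995 in leaf and 0.994 in germinating seed. These values are descriptions across genes, which are not independent replicates. A gene at 1 CPM or more in the mean of both libraries differed between a germinating seed library and a leaf library by a median of 0.956 to 0.963 on the log2 scale. The same median was 0.0975 between the leaf libraries and 0.138 between the germinating seed libraries.

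In germinating seed, 19228 genes were higher than in leaf and 19575 were lower, so that 65.7% of those tested were called (quasi-likelihood test of edgeR at an adjusted p under 0.05). The higher genes were 32.6% and the lower genes 33.1% of those tested. The lower genes differed by more on this scale. The median log2 change was -2.11 among the lower genes and 1.62 among the higher ones. At an estimated change of at least 4-fold, 10246 genes were lower and 7664 higher. At 16-fold or more, 4743 were lower and 3568 higher. Levels under a floor of 6 counts per library were not resolved, and many of these folds rest on them. The 3568 genes had a median of 0 CPM in leaf, under the floor of 0.137 CPM there, and 1.497 CPM in germinating seed. For many of them the floor thus does not show a 16-fold difference. The 4743 genes had medians of 5.43 CPM in leaf and 0.0449 CPM in germinating seed, under its floor of 0.0944 CPM. The median standard error of a log2 change was 0.26. The near balance between directions rested on the scale. With total counts alone 21143 genes were higher and 18100 lower, and with DESeq2 size factors 17897 were higher and 20912 lower.

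Likeness was read from the 95% interval of each log2 change, since a gene that misses a threshold need not be alike. For 11867 genes, 20.1% of those tested, the whole interval lay within 2-fold of the leaf level. Of these, 3778 were also called, so their difference was resolved and yet smaller than 2-fold. The interval lay wholly beyond 2-fold for 9934 lower and 7760 higher genes, together 29.96% of those tested. A further 3512 called genes had no count in 1 of the tissues and so no interval, with 2081 lacking counts in leaf and 1431 in germinating seed. Another 13819 genes were called with an interval that spans a 2-fold difference. The remaining 12170 genes, 20.6%, were neither called nor shown to lie within 2-fold, among them 593 without a count in any of the 4 libraries. The genes within 2-fold took 23.8% ± 0.00425 of the counts in leaf and 27.8% ± 0.0173 in germinating seed (SD, n = 2).

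**Figure D1:**
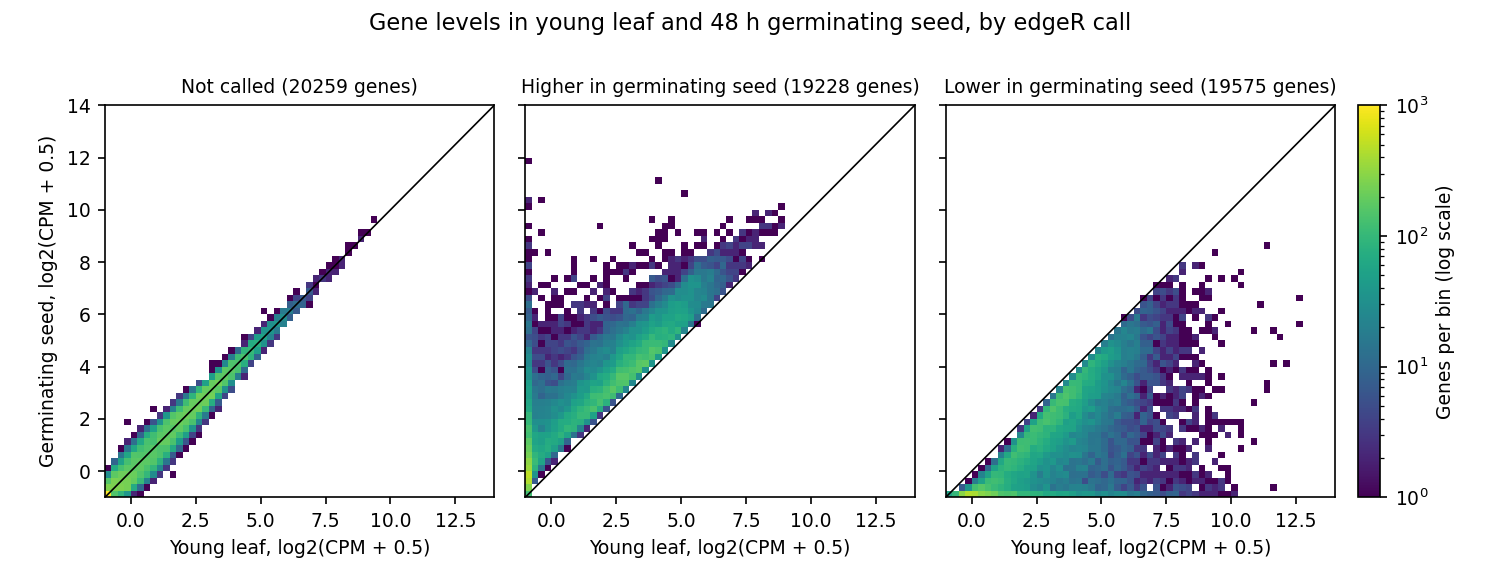
Levels in young leaf (x axis) and germinating seed (y axis) as log2(CPM + 0.5) on the TMM scale, as counts of genes per bin, in 3 panels by edgeR call; the line marks equal levels. The 20259 genes not called lie along the line, and the 19228 higher and 19575 lower genes spread away from it on either side, each down to the low end of the other tissue's axis.

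The gap between the tissues was widest among their most abundant transcripts. Of 26281 genes at 1 to 10 CPM in leaf, 33.2% were called higher in leaf and 29.5% higher in germinating seed, beside 33.1% and 32.6% of all genes tested. Their median level in germinating seed was 3.35 CPM. Of 15840 genes at 10 to 100 CPM in leaf, 49.2% were higher in leaf, 9.28% of the class by at least 16-fold, and 35.9% lay within 2-fold by their interval. From 100 to 1000 CPM, 82.4% of 977 genes were higher in leaf, 43.2% of the class were so by at least 16-fold, and the median level in germinating seed was 18.4 CPM. At 1000 CPM or more, all 26 genes were higher in leaf, with 0.0135 to 365 CPM in germinating seed and a median of 9.35 CPM. These classes were cut on the leaf level, which alone pulls the other tissue down, so they are descriptions.

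Read from the seedling's side, a larger share of the genes from 10 to 1000 CPM was called higher in the tissue read, but a smaller share by 16-fold or more. Of 14371 genes at 10 to 100 CPM in germinating seed, 60.6% were higher there, 3.81% of the class by at least 16-fold, and 39.8% lay within 2-fold of leaf. Of 1134 genes at 100 to 1000 CPM, 91.1% were higher in germinating seed, but only 8.11% by at least 16-fold, and their median level in leaf was still 49.8 CPM. The 8 genes at 1000 CPM or more, from 1026 to 3613 CPM, were all higher in germinating seed. Of these 8, 4 were off in leaf, and the median leaf level was 0.166 CPM. All 8 were on in dry seed, with a median of 902 CPM, and in 50 DPA seed, with a median of 332 CPM. Most abundant seedling genes were: of the 1134 genes at 100 to 1000 CPM, 91.5% were on in dry seed and 1076 genes in 50 DPA seed.

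**Figure D2:**
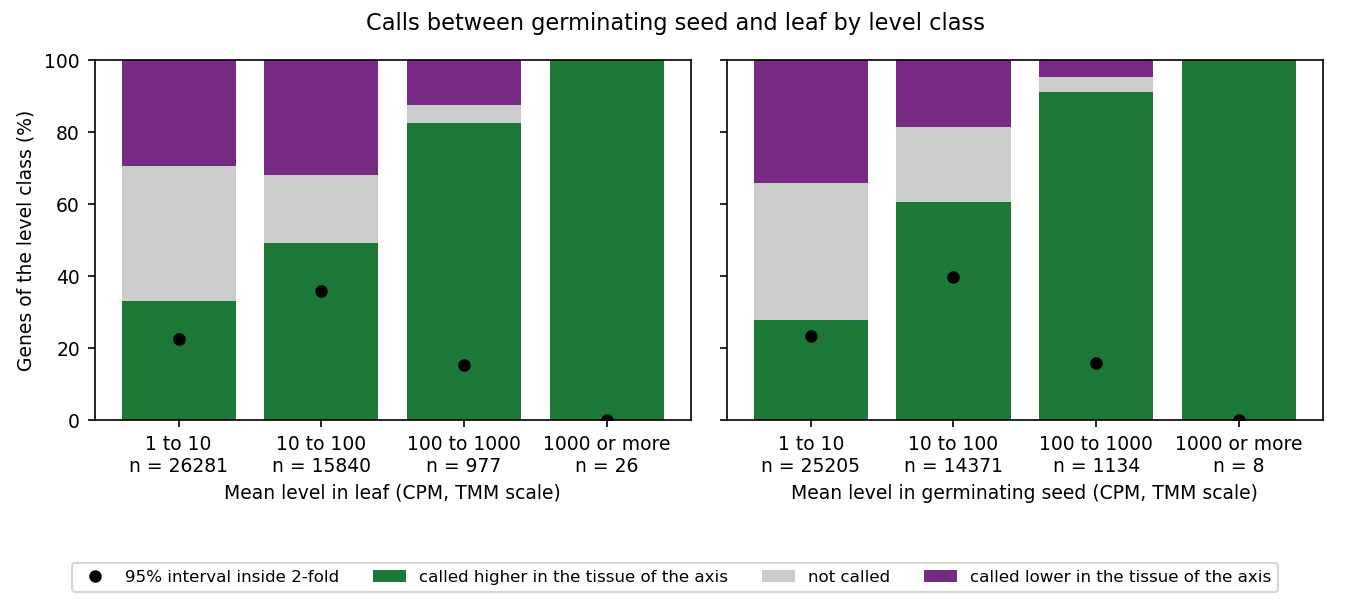
Percentage of genes called higher, not called and called lower (bars) in classes of mean level in leaf or in germinating seed, in CPM on the TMM scale, with the percentage whose 95% interval lies within 2-fold (black points). In the class from 100 to 1000 CPM the share within 2-fold falls to 15.3% for leaf levels and 15.8% for germinating seed levels.

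The most abundant transcripts of each tissue were mostly different. The 1000 most abundant genes of leaf and the 1000 of germinating seed shared 204 genes, 20.4% of each list. The 10 most abundant leaf genes took 4.65% ± 0.0191 of the counts in leaf and 0.0870% ± 0.000466 in germinating seed (SD, n = 2). In dry seed they took 0.00914% ± 0.000280. For the 100 most abundant leaf genes the shares were 13.4% ± 0.0700 in leaf and 0.589% ± 0.00891 in germinating seed. Of those 100 genes, 98 were lower in germinating seed, the other two lay within 2-fold by their interval, and 11 were off. The 1000 most abundant leaf genes took 34.9% ± 0.135 of the counts in leaf and 10.9% ± 0.0581 in germinating seed, with 830 lower, 120 higher and 69 off in germinating seed. The seedling's own 1000 most abundant genes took 29.4% ± 0.254 of counts at 48 h and 10.4% ± 0.0146 in leaf, with 916 higher there and 22 off in leaf. These lists were picked on the compared libraries, so the directions carry no support of their own. In germinating seed 3203 ± 42.4 genes made up 50% of counts, against 2861 ± 23.3 in leaf and 1175 ± 72.8 in dry seed (SD, n = 2). The germinating seed libraries gave 3173 and 3233 and the leaf libraries 2844 and 2877, without overlap; with 2 libraries on each side, the smallest p an exact permutation test can give is 0.333. For 90% of counts the order was the other way, with 19799 and 19935 genes in germinating seed and 21018 and 21149 in leaf.

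The 2056 genes that were on in leaf and not yet on in germinating seed made up 4.73% of the genes on in leaf. Their share of counts was 4.85% and 4.84% in the leaf libraries, and 0.00987% and 0.00979% in the germinating seed libraries. Most were modest transcripts: the median was 3.92 plain CPM in leaf, and 1150 of them, 55.9%, were below 5 CPM. At the upper end, 598 reached 10 CPM, 90 reached 100 CPM, and the highest stood at 1353 CPM. No count at all was seen in either germinating seed library for 722 of them. A count of 6 per library, or 3 read pairs, corresponds to 0.108 and 0.147 plain CPM in the germinating seed libraries, and levels under it were not resolved there. All 2056 were among the lower genes of the test, which the choice of members fixes, and 33.1% of all genes tested were lower.

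The dry seed and 50 DPA seed libraries played no part in choosing these genes. In dry seed 1649 of the 2056, or 80.2%, were off, against 16.4% of all genes on in leaf, and 111 were on. In 50 DPA seed 1421, or 69.1%, were off, against 11.7% of all genes on in leaf, and 248 were on. The 2056 were also weaker in leaf, with a median of 3.21 CPM against 6.96 CPM for all genes on in leaf. The part of level in these shares was not tested. In both seed stages 1277 genes, or 62.1%, were off. For these 1277 genes leaf was the single tissue of the 4 in which they were not off, while 297, or 14.4%, were on in at least 1 of the earlier seed stages. The 111 genes on in dry seed had a median of 3.34 plain CPM there and took 0.0909% ± 0.000749 of dry seed counts and 0.000865% ± 1.21e-05 of germinating seed counts (SD, n = 2). Leaf was above dry seed, with no overlap of libraries, in 46 of these 111 genes, and dry seed was above leaf in 56. The 111 were picked for being on in dry seed, and the same counts over all genes on in leaf were not taken.

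The 1723 genes that were on in germinating seed and off in leaf made up 4.11% of the genes on in germinating seed. They took 3.16% and 3.13% of counts in the germinating seed libraries and 0.00584% and 0.00587% in the leaf libraries. Their median was 3.22 plain CPM, 353 reached 10 CPM, 41 reached 100 CPM, and the highest stood at 4869 CPM. No count was seen in either leaf library for 906 of them, where a count of 6 corresponds to 0.171 and 0.165 plain CPM. All 1723 were among the higher genes of the test, which again the choice of members fixes, beside 32.6% of all genes tested.

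These seedling genes were split by their state in dry seed, which their choice did not use. The dry seed shares of the classes below follow in part from this split. On in dry seed were 439 genes, 25.5%, against 68.3% of all genes on in germinating seed. Their summed share of counts was 15.5% and 16.2% in dry seed and 1.63% and 1.56% in germinating seed, by library. In 50 DPA seed it was 23.6% and 23.4%. Abundant genes weigh most in such sums. The median of the 439 genes was 11.6 plain CPM in dry seed and 3.14 plain CPM in germinating seed. The highest in germinating seed, ZS11A05G024110 at 4869 plain CPM, stood above its dry seed level. Dry seed was above germinating seed without overlap of libraries in 332 of these 439 genes and below it in 89, on the TMM scale. Among all genes on in germinating seed, dry seed was at or above it in 14037, or 33.5%. The 439 were picked for being on in dry seed, which alone raises the count of 332. The count of 89 has no like share beside it. Off in dry seed were 1001 genes, 58.1%, against 12.8% of all genes on in germinating seed. They took 0.000837% ± 1.83e-05 of dry seed counts and 1.29% ± 0.0230 of germinating seed counts (SD, n = 2). Of these 1001, 777 were off in 50 DPA seed too, 214 reached 10 plain CPM in germinating seed, and the highest stood at 645 CPM. The remaining 283 genes stood between off and on in dry seed. As a whole, these seedling genes had a median of 2.39 CPM in germinating seed, against 6.37 CPM for all genes on there. The part of level in these shares was not tested.

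**Figure D3:**
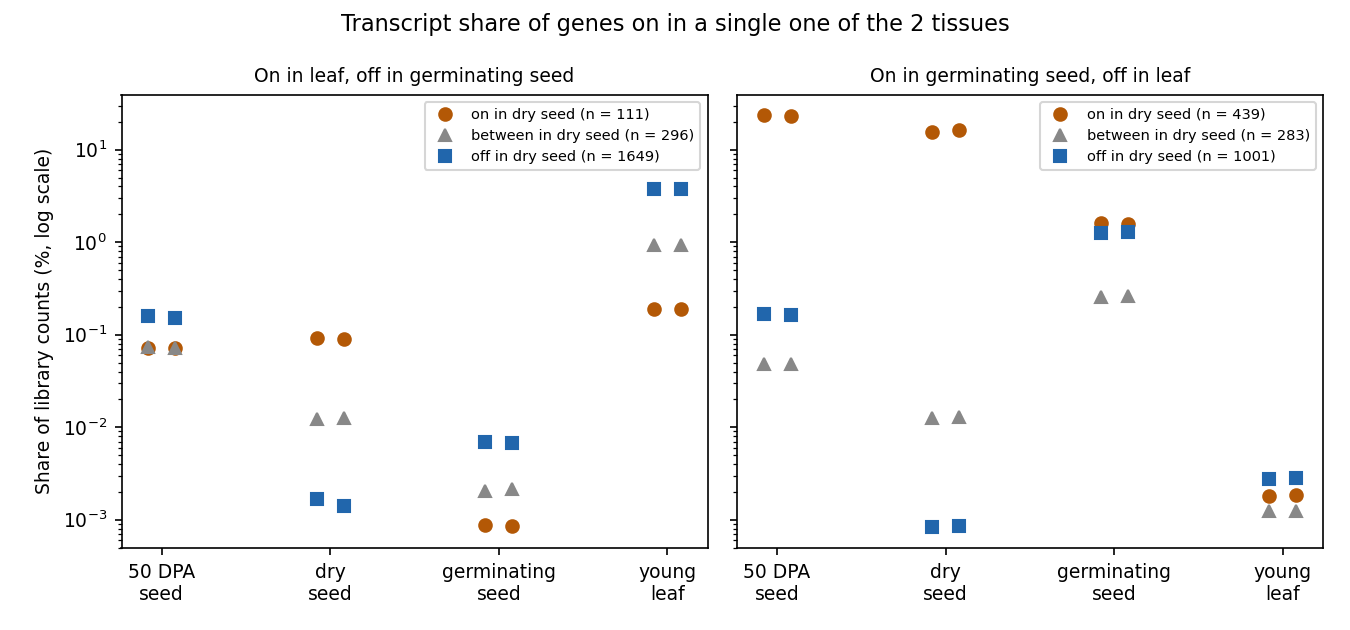
Share of library counts (%, log axis) taken in each library of the 4 tissues by genes on in leaf and off in germinating seed (left) and on in germinating seed and off in leaf (right), split by their state in dry seed; each point is a library. The summed share of the 439 seedling genes on in dry seed falls from 15.5% and 16.2% there to 1.63% and 1.56% at 48 h. Single genes need not follow the sum. The 1001 genes off in dry seed take 1.27% and 1.30% at 48 h.

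The genes with large estimated differences, many of them under the floor in the lower tissue, were read in the same way. They overlap the sets above and come from the same libraries, so they are no separate support. The genes on in germinating seed and off in leaf alone took 15.8% ± 0.495 of dry seed counts. In 50 DPA seed they took 23.7% ± 0.168 (SD, n = 2). The 3568 genes at least 16-fold higher in germinating seed than in leaf took 7.99% ± 0.0758 of its counts, 21.0% ± 0.687 of dry seed counts and 37.3% ± 0.213 of 50 DPA seed counts (SD, n = 2). Of these genes, 29.3% were on in dry seed and 52.1% were off, against 53.2% and 24.5% of all genes tested. The 4743 genes at least 16-fold lower in germinating seed took 28.5% ± 0.0618 of counts in leaf, 0.395% ± 0.000500 in germinating seed, 1.05% ± 0.00573 in dry seed and 1.91% ± 0.0127 in 50 DPA seed. Of these, 12.4% were on in dry seed and 67.4% were off.

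How far the seedling had moved from dry seed towards leaf was described for genes at least 4-fold apart between those tissues in every pair of libraries. These genes were chosen without the germinating seed libraries. A position of 0 on the log2 scale is the dry seed level and 1 the leaf level. For 11052 genes higher in leaf than in dry seed, the median position was 0.51, at 0.510 and 0.506 in the 2 germinating seed libraries. Their median level was 0.153 CPM in dry seed, 2.84 CPM in germinating seed and 11.1 CPM in leaf. For 5741 genes higher in dry seed than in leaf, the median position was 0.77, at 0.769 and 0.781 in the libraries. Their median level was 35.0 CPM in dry seed, 4.72 CPM in germinating seed and 2.13 CPM in leaf.

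By these medians, genes higher in dry seed stood nearer to the leaf level at 48 h than genes higher in leaf. The gap was wider than the difference between libraries, but its size rested on the pseudocount and the scale. Of the genes higher in leaf, 3473, or 31.4%, stood at 0.75 or above, of which 1741 were past the leaf level. Another 2198 stood between 0 and 0.25, and 1270, or 11.5%, were at or below the dry seed level. Of the genes higher in dry seed, 3043, or 53.0%, stood at 0.75 or above, and 334, or 5.82%, had not moved from the dry seed level or lay further from leaf. The position of a gene near the detection limit rests on the pseudocount of 0.5 CPM. This holds for many of the genes higher in leaf, as their dry seed median was under the floor. Their counts at and just above 0 are thus not resolved. With a pseudocount of 0.1 CPM the medians were 0.601 and 0.731, and with total counts alone 0.597 and 0.729, in the same order.

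**Figure D4:**
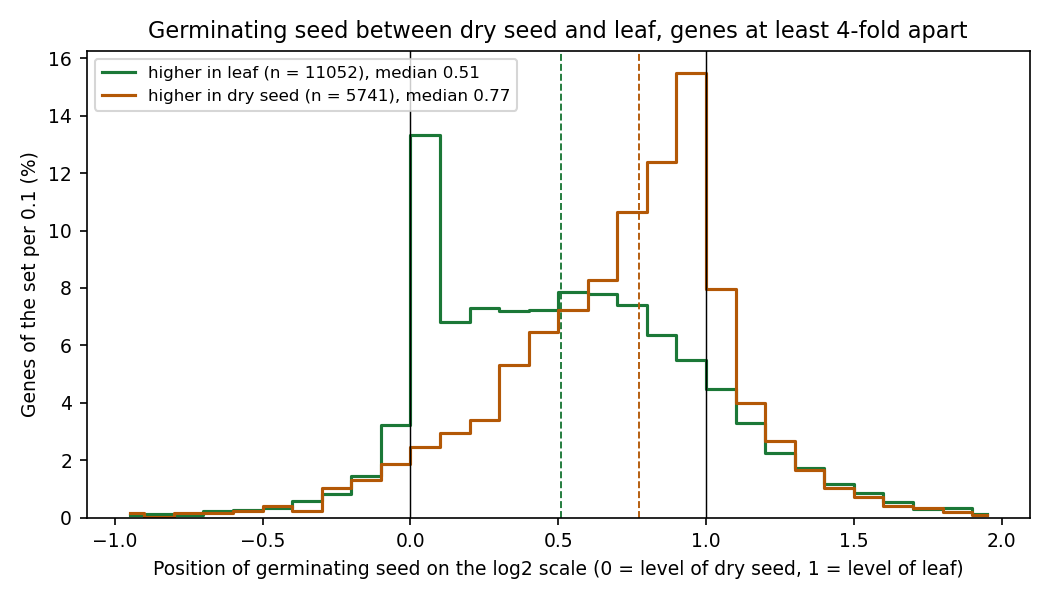
Percentage of genes per 0.1 of position between dry seed (0) and leaf (1) on the log2 scale, for 11052 genes higher in leaf and 5741 genes higher in dry seed; dashed lines are the medians, 0.51 and 0.77. Positions below -1 or at 2 and above are not drawn (84 and 33 genes). Genes higher in leaf have a peak just above 0, and genes higher in dry seed a peak just below 1.

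The largest change in each direction, and the most abundant transcript with at least a 4-fold change, are given by ID. ZS11A05G024110 had the largest rise and was also the most abundant gene of germinating seed, with 3728 and 3497 CPM in its 2 libraries and 0 counts in both leaf libraries. It was at least 26301-fold lower in leaf, against a floor of 6 counts per library (edgeR adjusted p = 1.09e-12). The gene was already present in the seed, at 1199 and 1217 CPM in dry seed and 339 and 347 CPM in 50 DPA seed. Its level thus stood in the order 50 DPA seed, dry seed, germinating seed, with no overlap between libraries.

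ZS11A01G001390, the next most abundant gene of germinating seed, stood at 2412 and 2219 CPM there and at 17.1 and 15.8 CPM in leaf. It was higher in germinating seed by a log2 change of 7.14 ± 0.08 (SE; edgeR adjusted p = 1.09e-12). Dry seed had 2182 and 2076 CPM, just under both germinating seed libraries on the TMM scale. How near they stand rests on the TMM factors, 0.885 and 0.866 in dry seed and 1.33 and 1.37 in germinating seed. On plain CPM the tissues lie further apart. In 50 DPA seed it stood at 314 and 328 CPM.

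ZS11A04G027560 had the largest fall. It stood at 3203 and 3132 CPM in leaf, where it was the 6th most abundant gene, and gave 2 and 12 counts in the germinating seed libraries. The log2 change was -14.8 ± 0.64 (SE; edgeR adjusted p = 1.35e-11), with a 95% interval from -16.2 to -13.4. It was -13.8 without germinating seed library 1 and -16.7 without library 2, whose omission leaves 2 counts, under the floor of 6, so the size of the fall rests on which library is read. The dry seed libraries gave 10 and 0 counts and 50 DPA seed 6.48 and 8.02 CPM. The gene was thus near the detection limit in dry and germinating seed and clearly detected in 50 DPA seed.

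ZS11C04G046750 was the most abundant gene of leaf, at 6029 and 6079 CPM, and stood at 53.5 and 53.0 CPM in germinating seed. It was lower there by a log2 change of -6.83 ± 0.07 (SE; edgeR adjusted p = 1.09e-12). Dry seed had 12.8 and 12.8 CPM and 50 DPA seed 113 and 111 CPM, so that germinating seed lay between those stages, without overlap of libraries. How reads shared by near-identical gene copies were counted is not stated, which leaves each of these 4 levels open to reads from copies.

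By subgenome, 34.9% of 27589 tested genes with an A chromosome prefix in their ID were higher in germinating seed, against 30.5% of 31359 with a C prefix. Over the chromosome prefixes the share was 35.0% ± 1.98 (SD, 10 prefixes) for A and 30.5% ± 1.47 (SD, 9 prefixes) for C. The A shares ran from 32.6% in A02 to 38.2% in A06 and the C shares from 28.5% in C02 to 32.6% in C03. The difference was 2.90 to 5.33 percentage points under the main and 14 other settings. For lower genes the shares were 32.3% and 33.9%, and this order turned without the filter on low counts. Median levels moved with the subgenome, at 3.45 CPM for A and 2.85 CPM for C in germinating seed and 4.10 and 3.66 CPM in leaf. Their part in the result was not tested. Genes not yet on were 4.84% of A and 4.61% of C genes on in leaf, and genes on in the seedling and off in leaf 4.28% and 3.96% of those on in germinating seed, differences smaller than the spread between chromosome prefixes.

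**Figure D5:**
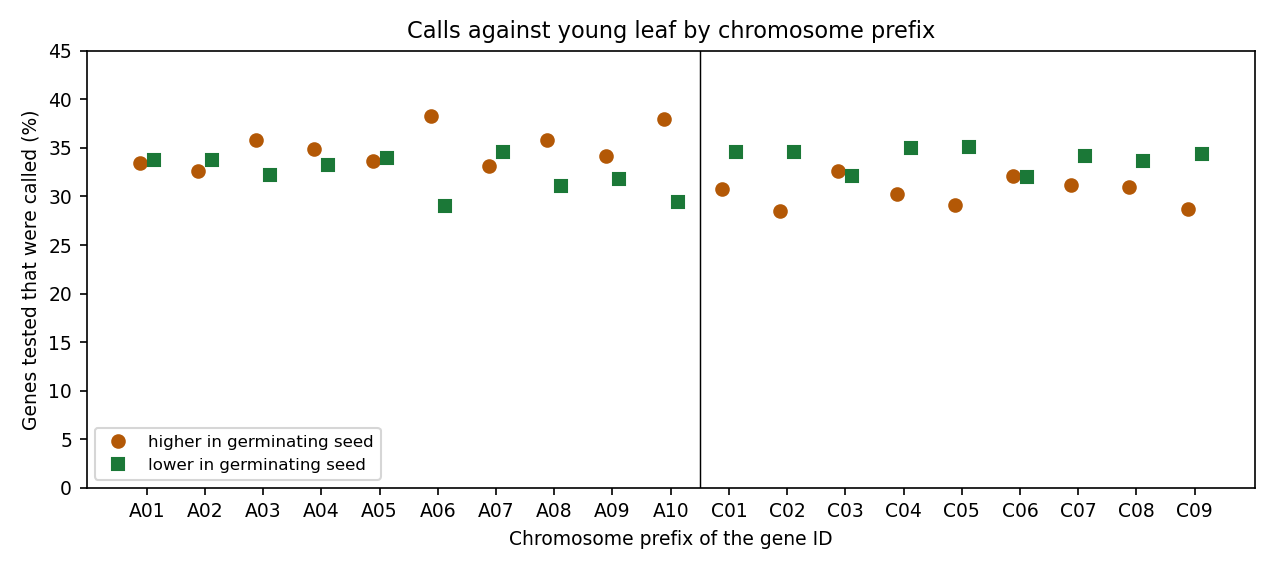
Percentage of tested genes called higher (circles) or lower (squares) in germinating seed than in leaf, by the chromosome prefix of the gene ID. Circles lie above squares most widely in A06 and A10, where 38.2% and 38.0% of genes were higher, and below them in C02, where 28.5% were higher.

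IDs are ordered by chromosome prefix and a running number. The 2050 not-yet-on genes with a chromosome prefix were 1.94% of all such IDs, and 196 of them, or 9.56%, had a neighbouring ID in the same set, and 12 runs of 3 or more IDs held 38 of them. The 1722 seedling genes were 1.63% of such IDs, and 138, or 8.01%, had such a neighbour, with 2 runs of 3 or more. The longest run had 5 IDs, under the prefix C03. An ID can have a neighbour on either side, and all IDs include genes off in both tissues. The shares with a neighbour thus have no like share beside them, and clustering was not tested. Whether neighbouring IDs are copies of each other is not given by the files.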

How the data were processed

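Counts per gene were deposited by the authors as whole numbers for 8 libraries; 1 line naming alignment files, marked Q30, was removed. The submitters' processing notes name FastQC, HISAT2, SAMtools and edgeR. For versions, read counter, build and annotation, nothing is given in the sources used here. Of the nonzero values, 80.5% to 85.4% were even, as when both mates of a pair are counted, so counting error exceeds what the counts imply. The deposited TMM signal was used only to check the scale: it was the count multiplied by a fixed factor for the library, with gaps of at most 0.00326.

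Genes kept by filterByExpr (59062) were scaled by TMM and tested by the robust quasi-likelihood test of edgeR 4.0.16 (R 4.3.3; DESeq2 1.42.0 as an alternative). The fit held all 8 libraries, 1 mean per tissue, no covariate and 1 shared spread per gene. Tests were 2-sided, adjusted by Benjamini-Hochberg. Intervals of 95% used the fitted weights, and leaf and germinating seed spread differed, so those of abundant seedling genes may be too narrow. The step was tested on simulated data. Same-numbered libraries deviated together with r from -0.0086 to 0.0064, so no pairing by number was seen. This r spans all genes tested, many at low counts, so it cannot exclude a weak pairing. Lists by product name could not be applied, as no ID has a name. Named genes were 2 IDs per direction: the largest fold, then the most abundant with at least a 4-fold change, at 50 CPM or more in both higher libraries. The comparison, sets and rules were chosen with earlier results of these data known. Intervals rest on the spread between libraries, whereas floors cover counting error only.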

Additional observations from a re-analysis of the deposited data

How the results depend on the processing

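The robust setting was added after the data were seen; without it 19311 genes were higher, 19662 lower and 11917 within 2-fold. With a 2-fold minimum in the test, 10828 genes were higher and 12433 lower in germinating seed. The other 13 settings gave 15105 to 22369 higher and 15218 to 21831 lower genes, and 12 gave 8163 to 15476 genes within 2-fold. With the replicate block, 18103 were higher, 18176 lower and 11005 within 2-fold, each within 1.5 times the value without it. No pairing of same-numbered libraries was seen. Leaving out 1 leaf or germinating seed library at a time gave 15105 to 16226 higher, 15218 to 15927 lower and 8163 to 8925 genes within 2-fold; a lone library was assumed to vary like the other tissues. Genes not yet on numbered 869 with on at 5 CPM, 722 with off at 0 counts, 3348 with off below 0.5 CPM, and 2211 to 2454 with a library left out. Genes on in germinating seed and off in leaf numbered 563, 906 and 2592 under those limits, and 1902 to 1986 with a library left out. These limits change the sets by construction. With TMM factors the sets held 2109 and 1556 genes. The median position was 0.372 for genes higher in leaf and 0.841 for genes higher in dry seed at 16-fold or more, 0.597 and 0.729 with total counts alone, and 0.601 and 0.731 with a pseudocount of 0.1 CPM. With a library left out it was 0.506 to 0.51 and 0.769 to 0.781. The 4 named genes kept direction and call in all 14 alternatives each, which the size of their changes made nearly certain. Levels under 6 counts per library are not resolved at this depth.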
